A study of Mus musculus with 18 samples.

Results

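Tspan4 encodes tetraspanin 4, a small membrane protein that crosses the membrane repeatedly, and it was followed here through the cells of mouse dorsal dermis over the day. It was 1 gene of the 32285 counted, taken by its symbol, and it was chosen by a measured value, the daily cycle of its level in the summed counts of fibroblasts and of immune cells over the 18 libraries. Those rhythms are therefore given as a description without a test. The cells came from wild-type male C57BL/6J mice about 54 days old, kept in 12 h of light and 12 h of dark, and no genotype or treatment other than the time of collection separated the groups. Skin was collected at 6 zeitgeber times (ZT, hours after lights on), ZT2, ZT6, ZT10, ZT14, ZT18 and ZT22, with 3 libraries at each. The replicate number marks the day, since replicate 1 covers collection hours 2 to 22, replicate 2 hours 26 to 46 and replicate 3 hours 50 to 70. Live cells of the digested dermis were sorted and sequenced with a droplet method that reads the 3′ ends of transcripts and counts unique molecular identifiers (UMIs, 1 per captured transcript). At this age the hair follicles of the back rest.

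Tetraspanins sit in the plasma membrane and in vesicles, where they gather integrins, immunoglobulin-like partners and each other into patches. Tspan4 is best known as a marker and a builder of migrasomes, membrane bulbs that migrating cells leave on their retraction fibres and that both fibroblasts and macrophages can form. The core clock of a cell is a feedback loop in which BMAL1 (from Arntl) and CLOCK bind E-box sequences and drive Per, Cry and Rev-erb genes as well as D-box factors such as Dbp, Tef and Hlf.

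After filters on detected genes and mitochondrial share, 16877 of 23990 barcodes were kept, 177 to 1998 per library, with 3777201 to 40094033 UMIs per library. Of the kept barcodes, 36 sequences occurred in more than 1 library. Clusters built without the tetraspanin and clock genes were named from markers. They held 11107 fibroblast-like cells, 1627 macrophage-like cells, 1710 other immune-like cells and 732 muscle-like cells, called fibroblasts, macrophages, other immune cells and muscle cells from here on. The 8 macrophage markers together stood at 180 to 220 UMIs per 10000 in macrophages and at 0.0410 to 0.169 in fibroblasts. The 6 fibroblast markers stood at 567 to 997 in fibroblasts, at 3.07 to 73.7 in macrophages, at 1.68 to 46.1 in other immune cells and at 0 to 77.0 in muscle cells. The 7 muscle markers stood at 1201 to 2670 in muscle cells, where Csf1r and Adgre1 of the macrophage list were at 0. Fibroblast transcripts thus occurred at a low and uneven level in the barcodes of every other type, and their levels are set beside each result that they touch.

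Tspan4 (ENSMUSG00000025511) lies on the plus strand of chromosome 7 at 141475240 to 141493427 of GRCm38. The annotation lists 5 protein-coding transcripts and 1 with a retained intron. Its last 292 bases are shared with the end of Chid1, which runs the other way, while Polr2l, also on the minus strand, lies just upstream, with Cd151, another tetraspanin gene, as the next protein-coding gene beyond it. RefSeq gives promoters at 2 Tspan4 start sites of GRCm38.p6, and each window of 250 bases before to 50 bases after a start was searched on both strands for the E-box CACGTG, the D-boxes TTATGNAA and TTACGTAA, and the Rev-erb and ROR element AGGTCA. The window of the downstream start holds 1 E-box, in capitals here because it was the single match, at 141476329 to 141476334. It is shown because the pattern of Tspan4 is set beside that of clock genes below.

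Tspan4 promoter of the downstream start, chr7:141476130-141476429, plus strand, GRCm38.p6: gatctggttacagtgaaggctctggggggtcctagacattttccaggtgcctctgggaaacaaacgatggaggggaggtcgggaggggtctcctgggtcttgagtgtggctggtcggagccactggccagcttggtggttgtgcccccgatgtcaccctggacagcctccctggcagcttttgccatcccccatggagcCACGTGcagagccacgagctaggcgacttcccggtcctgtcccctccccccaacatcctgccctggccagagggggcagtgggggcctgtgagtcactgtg

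The window of the upstream start, chr7:141474986-141475285, holds none of these letters. CACGTG occurs in 7.15% of the 32851 RefSeq promoter windows of the same length, TTATGNAA in 3.39%, TTACGTAA in 0.119% and AGGTCA in 16.3%. A match is a description of the sequence, and reads from 3′ ends do not tell which start a transcript used.

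Fibroblasts held most of the Tspan4 transcripts, 29996 UMIs, and the level there rose through the light phase and fell through the dark phase. At ZT2 the 3 libraries, in order of replicate, stood at 0.684, 0.544 and 0.508 Tspan4 UMIs per 10000, at ZT6 at 0.997, 1.06 and 1.37, and at ZT10 at 1.67, 2.02 and 2.00. At ZT14 they stood at 1.92, 2.37 and 1.79, at ZT18 at 1.64, 0.932 and 1.16, and at ZT22 at 0.703, 0.742 and 0.669. The 6 libraries around lights off, at ZT10 and ZT14, lay above all 12 others, and those of ZT2 and ZT22 lay below all the rest. The mean ± SD of 3 libraries went from 0.579 ± 0.093 at ZT2 to 1.90 ± 0.20 at ZT10 and 2.03 ± 0.30 at ZT14, a ratio of 3.50 between the highest and the lowest time. A 24 h cosine fitted to the 18 libraries had an amplitude of 60.5 ± 4.1% of the mean level (jackknife SE over libraries) and a peak at 12.4 ± 0.4 h, the hour of lights off. These are the values that chose the gene, so their agreement over libraries is no separate evidence of a rhythm. The mitochondrial share of fibroblast UMIs moved at the same hours, with an amplitude of 0.214 ± 0.052 percentage points about 2.33% and a peak at 11.8 h, and its part in the Tspan4 values was not tested.

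Macrophages held far fewer transcripts of the gene, 1703 UMIs, and followed the same course. Their 3 libraries stood at 0.403, 0.306 and 0.321 per 10000 at ZT2, at 0.726, 0.420 and 0.676 at ZT6, and at 0.868, 1.44 and 1.51 at ZT10. They stood at 1.39, 1.72 and 1.37 at ZT14, at 0.922, 0.824 and 0.862 at ZT18, and at 0.502, 0.382 and 0.503 at ZT22. Libraries of ZT10 and ZT14 lay above all those of ZT2, ZT6 and ZT22, while ZT10 replicate 1 lay among those of ZT18, of which replicate 1 held only 19 macrophages. The mean went from 0.343 ± 0.053 at ZT2 to 1.49 ± 0.20 at ZT14 (SD, n = 3), a ratio of 4.35. The cosine amplitude was 69.4 ± 5.9% of the mean, with a peak at 12.9 ± 0.4 h. Against fibroblasts the relative amplitude was 8.91 ± 4.26 percentage points larger and the peak 0.57 ± 0.43 h later (jackknife SE of the difference, no test). Both cell types thus peaked within about an hour of lights off. The amplitude in counts per 10000 differed by -0.181 ± 0.035, macrophages minus fibroblasts, so it was smaller in macrophages.

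**Figure D1:**
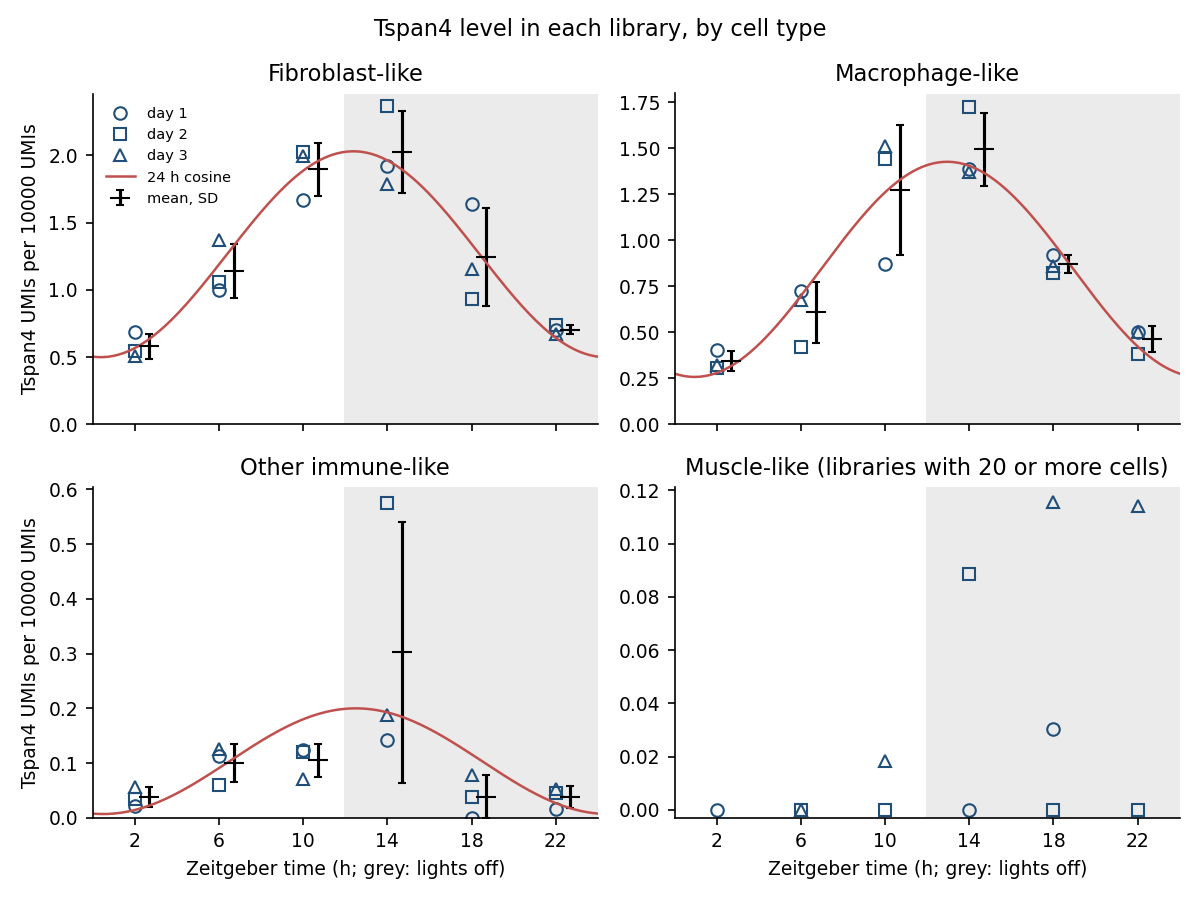
Tspan4 UMIs per 10000 UMIs of each library (y axis, scaled per panel) against zeitgeber time (x axis, h, dark phase shaded) in the 4 cell types; symbols mark the day of collection, crosses with bars the mean and SD of 3 libraries (lower ends stop at 0) and lines the fitted 24 h cosine. Fibroblasts and macrophages rise from ZT2 to ZT14 and fall to ZT22, while 1 library of other immune cells stands at 0.576 and 7 of the 12 muscle libraries stand at 0.

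On each of the 3 days both cell types had their lowest level at ZT2 and their highest at ZT14, ZT14 and ZT10. In fibroblasts the relative amplitude was 54.2%, 70.2% and 60.6%. In macrophages it was 53.0%, 87.2% and 68.5%, with day 2 the highest in both cell types. Peaks of the daily cosines lay at 13.5, 12.2 and 11.6 h in fibroblasts and at 13.6, 13.01 and 12.4 h in macrophages. With 6 libraries a day and 1 at each time, these daily fits have no replicate.

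Most fibroblasts had a Tspan4 UMI at every zeitgeber time, and the share of cells with a UMI followed the level over the day. Over all times 79.3% of fibroblasts (95% exact binomial interval 78.6 to 80.1%, counting error only) had a Tspan4 UMI at a median depth of 22278 UMIs per cell, against 49.2% of macrophages (46.8 to 51.7%) at 12391. Among muscle cells 2.05% (1.15 to 3.36%) had one at 6598 UMIs. In the neutrophil cluster, with 62.6% of its 147 cells from 1 library, 2.04% (0.423 to 5.85%) had one at 4349 UMIs, from 3 UMIs. These types differ in depth, and the summed fibroblast markers had a median of 1.34 per 10000 in muscle cells and 9.49 in macrophages, so the low shares in muscle cells and neutrophils do not give the background of macrophages. To compare times at equal depth, cells were thinned to 5000 UMIs, which left out 172 fibroblasts and 205 macrophages that were shallower. The thinned share in fibroblasts then averaged 23.7% at ZT2, 58.01% at ZT10 and 61.1% at ZT14, and in macrophages 13.2%, 43.4% and 50.4%. Its cosine amplitude was 19.4 ± 1.5 percentage points in fibroblasts and 19.0 ± 2.0 in macrophages. The next values pool the cells of the 3 libraries of a time, which held unequal numbers of cells. Of all thinned fibroblasts, 78.1% had no Tspan4 UMI at ZT2 and 41.0% at ZT14, while the share with 3 or more went from 0.319% to 9.43%. A Poisson count with the same means would leave 77.2% and 37.4% with none, so the share carried little beyond the mean level. Of thinned macrophages, pooled likewise, 87.1% had none at ZT2 and 49.5% at ZT14. Their share with 3 or more went from 0 of 319 cells to 5.50%. A count of 0 in 319 cells allows a share of up to 0.940%, counting error only.

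**Figure D2:**
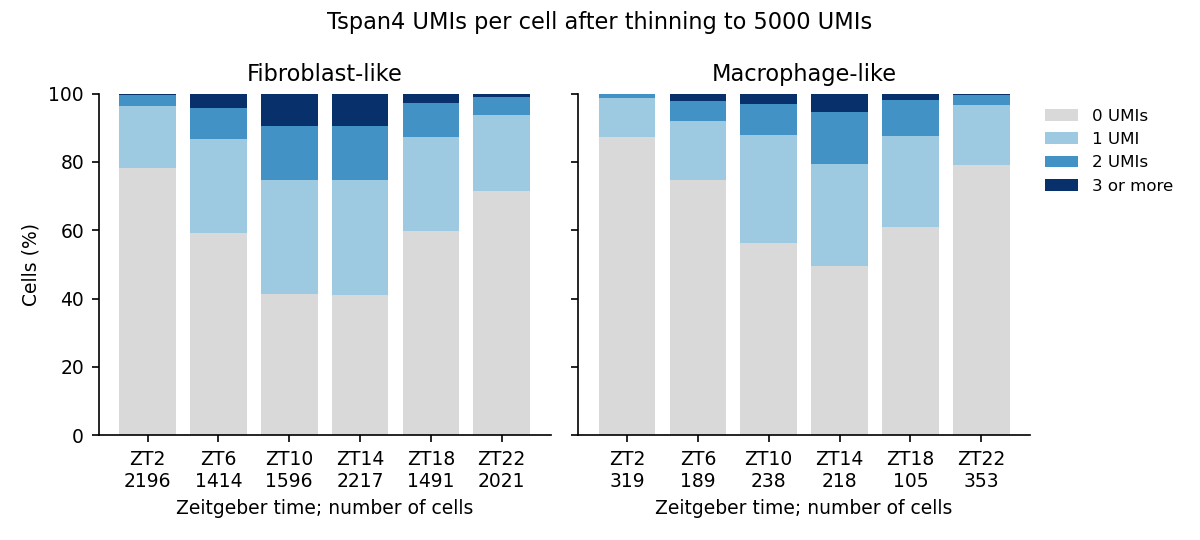
Percent of cells (y axis) with 0, 1, 2 and 3 or more Tspan4 UMIs after every cell was thinned to 5000 UMIs, at each zeitgeber time (x axis, with the number of cells pooled over 3 libraries), in fibroblasts and macrophages. Cells with no UMI are most frequent at ZT2, 78.1% and 87.1%, and least frequent at ZT14, 41.0% and 49.5%.

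Kinds of fibroblast are named here by the genes that lead each cluster, with mean levels over the libraries with at least 20 such cells. Among the 9 clusters named fibroblasts the mean was lowest at 0.947 ± 0.401 per 10000 (SD, n = 11) in cells led by Steap4 and Cxcl14. It was highest at 1.89 ± 0.68 (n = 11) in cells led by Cilp and Mgp. A cluster led by Cthrc1 and Tnmd was left without a name by the naming rule, although all 6 fibroblast markers were detected in it. Its mean was lower still, at 0.690 ± 0.317 (n = 13). Cells led by Cxcl1 and Has1 stood at 1.05 ± 0.56 (n = 12). Summed over all libraries their order with the Steap4 and Cxcl14 cells was reversed, at 0.927 per 10000 against 1.04. The pair of clusters that share Krtdap and Dmkn stood at 1.31 ± 0.64 (n = 17, Dmkn first) and 1.23 ± 0.67 (n = 16, Krtdap first). The SDs span the day and the libraries differ between clusters, so these means were not tested against each other. The cosine amplitude in the 9 clusters named fibroblasts lay between 43.2 ± 10.6% (Cilp and Mgp) and 66.8 ± 4.6% (Krtdap first, then Dmkn) of each cluster's own mean, and the peak between 11.1 and 13.2 h. Cells led by Ifit1 and Iigp1, genes of the interferon response, had 62.4 ± 5.6%, and the larger cluster of macrophages, led by the scavenger lectin genes Fcna and Cd209f, had 72.1 ± 7.5% with a peak at 13.1 h. A smaller macrophage cluster led by Hmox1 and Gdf15 reached 20 cells in only 7 libraries and stood at 0.688 per 10000 when summed, against 0.809 in the larger one.

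**Figure D3:**
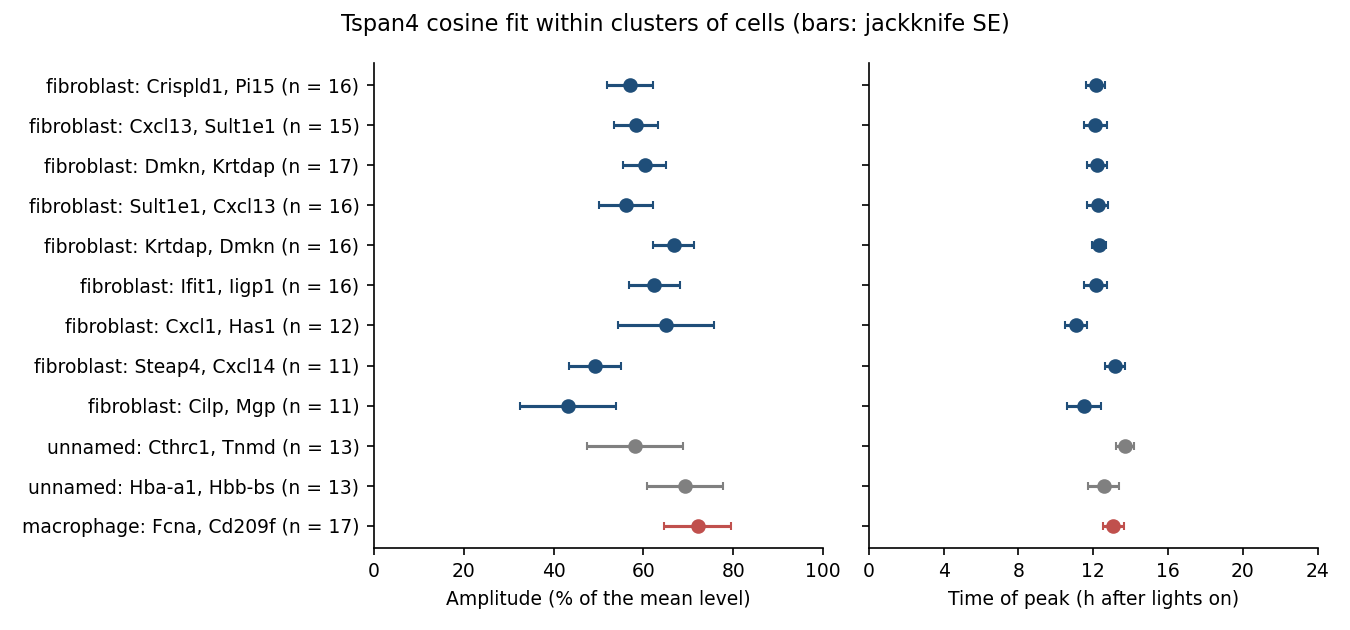
Cosine amplitude of Tspan4 as percent of the mean level (left) and time of peak in h after lights on (right) in each cluster with at least 20 cells in enough libraries; bars are jackknife SEs, n is the number of libraries, and colours separate fibroblast, macrophage and unnamed clusters. All 12 clusters have amplitudes between 43.2% and 72.1% and peaks between 11.1 and 13.7 h.

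All immune cells as 1 population, the second population in which the gene was chosen, averaged 0.479 ± 0.266 per 10000 (SD, n = 18), with a lowest library of 0.136, a median of 0.427 and a highest of 1.15. The cosine amplitude was 61.6 ± 11.3% and the peak 12.6 ± 0.7 h. On the 3 days the amplitude was 34.03%, 90.8% and 61.5%, a wider range than in macrophages alone. The makeup of this mixture varied as well, since macrophages were 34.6% of immune cells at ZT14, on average, and 63.5% at ZT22, with single libraries from 25.3% to 80.8%. A cosine fitted to this share had an amplitude of 7.42 ± 5.38 percentage points (jackknife SE). The lowest mean share was at ZT14, the time of the highest mean Tspan4 level, though ZT2 replicate 3 had 27.1%. The part of makeup in the immune values was not tested.

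Other immune cells held 240 Tspan4 UMIs in all. Their level averaged 0.104 ± 0.128 (SD, n = 18), and at ZT14 the 3 libraries stood at 0.143, 0.576 and 0.188 per 10000 against 0 to 0.126 at all other times, where the 0 came from a library with 12 such cells. The library at 0.576, ZT14 replicate 2, gave 64 of the 240 UMIs. It also had the highest summed level of the 8 macrophage markers in other immune cells, 72.2 per 10000 in a range that began at 14.7, while its fibroblast markers stood at 10.6. Over the 3 libraries of ZT14 the macrophage markers averaged 50.3 ± 19.6 (SD), against means of 24.6 to 31.9 at the other times. ZT14 replicate 3, at 0.188, had fibroblast markers at 34.1. Single libraries of other times reached 52.0 for macrophage markers (ZT2 replicate 3) and 46.1 for fibroblast markers (ZT18 replicate 3). The part of macrophage and fibroblast transcripts in the ZT14 values was not tested. By cluster, cells led by Lyz1, Ear2 and Ly6c2 summed to 0.137 per 10000 with 0.865 in ZT14 replicate 2, dendritic-like cells to 0.0768, and T and NK-like cells to 0.0739. The first of these clusters held 929 of the 1710 other immune cells. All 8 macrophage markers and 3 monocyte markers were detected in it, and its leading genes left it without a sub-type. Mast-like cells stood at 0.372, from 11 UMIs in 54 cells.

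Between cell types the level fell in the order fibroblasts, macrophages, other immune cells and muscle cells. The choice of the gene used no comparison of levels between types. It did need the gene to be detected in fibroblasts and immune cells, and it asked nothing of muscle cells. Levels were compared within libraries on log2 of the counts per 10000 with 0.1 added, by a two-sided permutation test of sign flips with 100000 draws, adjusted over the 6 pairs of cell types. Fibroblasts were higher than macrophages in 18 of 18 libraries, by 0.56 ± 0.25 log2 units (SD, permutation p = 1e-05, adjusted p = 4e-05), and 1e-05 is the smallest p that the draws can give. As a ratio the fibroblast level was 1.13 to 2.51 times the macrophage level, with a median of 1.40. At clustering resolution 2, where the cells in each class differ, the difference was 0.85 log2 units. The macrophages of that clustering included 309 cells led by Lyz1 and Ear2, which summed to 0.023 per 10000. Macrophages were higher than other immune cells in 18 of 18 libraries, by 2.20 ± 0.58 (permutation p = 1e-05, adjusted p = 4e-05). Of the 1710 other immune cells, 929 belonged to the cluster led by Lyz1, Ear2 and Ly6c2, in which all 8 macrophage markers were detected. Against muscle cells, in the 12 libraries with at least 20 of these, fibroblasts were higher by 3.46 ± 0.76 and macrophages by 2.89 ± 0.77, each in 12 of 12 (permutation p = 0.00046 and adjusted p = 0.000552 for both). With all 12 libraries on the same side, this p is the smallest that sign flips can give, up to the error of the draws. It does not measure the size of the difference. Other immune cells and muscle cells, the lowest neighbours in this order, differed by 0.57 ± 0.72, with the former higher in 9 of 12 libraries (permutation p = 0.02059, adjusted p = 0.02059).

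The share of cells with a UMI, after thinning, gave the same order. It was 41.5 ± 15.3% in fibroblasts and 30.7 ± 15.8% in macrophages (SD, 17 libraries with at least 20 such cells of each), higher in fibroblasts in 16 of 17, by 10.8 ± 7.0 percentage points (permutation p = 6e-05, adjusted p = 0.00012). The SDs here span all times of day, so the daily change is part of them. Macrophages stood 26.8 ± 13.5 points above other immune cells, in 17 of 17 libraries (permutation p = 3e-05, adjusted p = 9e-05), and 33.0 ± 17.3 points above muscle cells, in 10 of 10 (permutation p = 0.00212, adjusted p = 0.002544). With all libraries on the same side, these p-values too are the smallest that sign flips can give, up to the error of the draws. Other immune cells exceeded muscle cells by 3.54 ± 4.80 points in 7 of 10 libraries (permutation p = 0.03114, adjusted p = 0.03114), and the adjusted p became 0.0625 when any of ZT6 replicate 3, ZT10 replicate 2, ZT10 replicate 3, ZT14 replicate 2 or ZT22 replicate 2 was left out.

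Transcripts of fibroblasts that reached the barcodes of other cells were set beside these levels. Summed over libraries, Tspan4 in macrophages stood at 64.9% of its fibroblast level, from 39.8% to 88.5% in single libraries, while the 6 fibroblast markers (Col1a1, Col1a2 and Col3a1, collagen chains; Dcn and Lum, matrix proteoglycans; Pdgfra, a growth factor receptor) stood at 1.89 to 3.72% of theirs. In single libraries the markers reached at most 15.6% (Col1a1). In other immune cells Tspan4 was at 9.67% and the markers at 2.11 to 2.71%. Single libraries overlapped there, with Tspan4 at 0 to 24.3% (median 6.49%) and the markers at up to 8.25% (Pdgfra). In muscle cells Tspan4 was at 3.26% and the markers at 1.38 to 2.87%. In these sums Tspan4 in macrophages stood at a higher percent than the markers, and in muscle cells at a percent close to theirs. The part of fibroblast transcripts in the Tspan4 levels was not tested. Over the day, fibroblast markers in macrophages averaged 20.4, 11.9, 19.8, 8.31, 7.28 and 38.2 per 10000 from ZT2 to ZT22. The highest mean, 38.2 ± 33.4 (SD, n = 3), was at ZT22, when Tspan4 in macrophages was low. In ZT10 replicate 2 the markers stood at 43.0 with Tspan4 at 1.44. The libraries of 1 time were thus uneven, and a daily course of the markers was not tested.

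**Figure D4:**
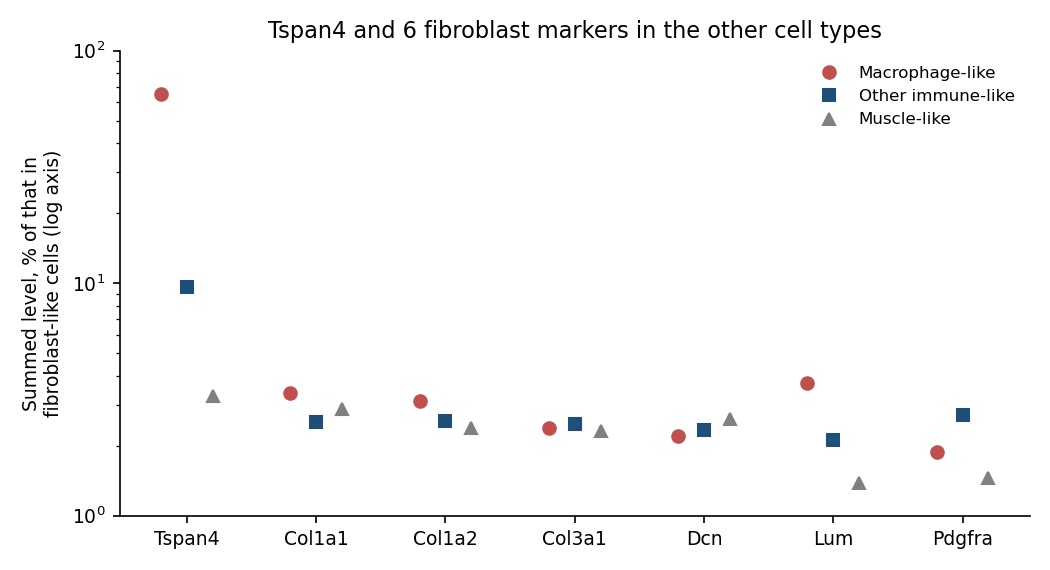
Level of Tspan4 and of the 6 fibroblast markers in macrophages, other immune cells and muscle cells, each as percent of the same gene's level in fibroblasts (y axis, log scale, counts summed over 18 libraries). In these sums Tspan4 in macrophages stands at 64.9% and in other immune cells at 9.67%, above all 6 markers, and in muscle cells at 3.26%, near the markers. Single libraries are not shown.

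Muscle cells gave only 26 Tspan4 UMIs in 732 cells. Among the 12 libraries with at least 20 muscle cells, 7 had none, ZT10 replicate 3 and ZT18 replicate 1 had 1 each, ZT14 replicate 2 had 9, ZT18 replicate 3 had 11 and ZT22 replicate 3 had 4. The last 3 libraries had fibroblast markers at 9.34, 77.0 and 41.8 per 10000 in their muscle cells. ZT2 replicate 1 and ZT6 replicate 2 had 17.7 and 19.7 with no Tspan4 UMI, and a count of 0 allows up to 3 UMIs. The part of fibroblast transcripts in the muscle counts was not tested. With the cells of highest doublet score removed, 1 UMI was left in ZT18 replicate 3 and 5 in ZT14 replicate 2. A rhythm in muscle cells was not used in the choice of the gene and could be tested, but Tspan4 did not pass the filter on low counts. Without that filter edgeR fitted a log2 amplitude of 1.87, which depends on the prior count with so many libraries at 0, and a peak at 17.9 h. Its p was under 0.05 before adjustment, and the adjusted p = 0.382 over 13831 genes in edgeR, so a rhythm of Tspan4 was not called in muscle cells. Dbp, a D-box factor driven by the clock, was the 1 of 7 clock genes tested that was called rhythmic in the same cells, with a log2 amplitude of 1.48 and a peak at 9.4 h (edgeR, adjusted p = 2.6e-05). Of all 3148 genes tested there, 0.127% were called.

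The other tetraspanins with a Tspan number, 19 genes, were read as the background of the family. In fibroblasts 11 of them passed the filter on low counts, and 1 of the 11 was called rhythmic by edgeR at an adjusted p under 0.05, where 14.1% of all 12236 genes tested were called. That gene was Tspan17, a tetraspanin that binds the protease ADAM10, with library levels of 0.0633 to 0.123 per 10000 and a median of 0.0953. Its log2 amplitude was 0.25 with a peak at 11.2 h (edgeR adjusted p = 0.021), and its cosine amplitude was 17.4 ± 4.6% of the mean. Without ZT22 replicate 1 no other Tspan gene was called, so the count of 1 became 0. Tspan12, which acts with the receptor Fzd4, had a log2 amplitude of 0.33 and a peak at 16.4 h (edgeR adjusted p = 0.051). Tspan5, another partner of ADAM10, had 0.11 and 18.4 h (edgeR adjusted p = 0.117). The median log2 amplitude of the 11 genes was 0.13, beside 0.13 over all genes tested, so the share called and the size of the daily change lay near those of genes at large. Tspan1 and Tspan10 were at 0 in every fibroblast library, and the 6 others below the filter had 8 to 63 UMIs each. Tspan3, for which 38260 UMIs were counted in fibroblasts, had a cosine amplitude of 2.86 ± 1.78% and no call (edgeR adjusted p = 0.797).

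**Figure D5:**
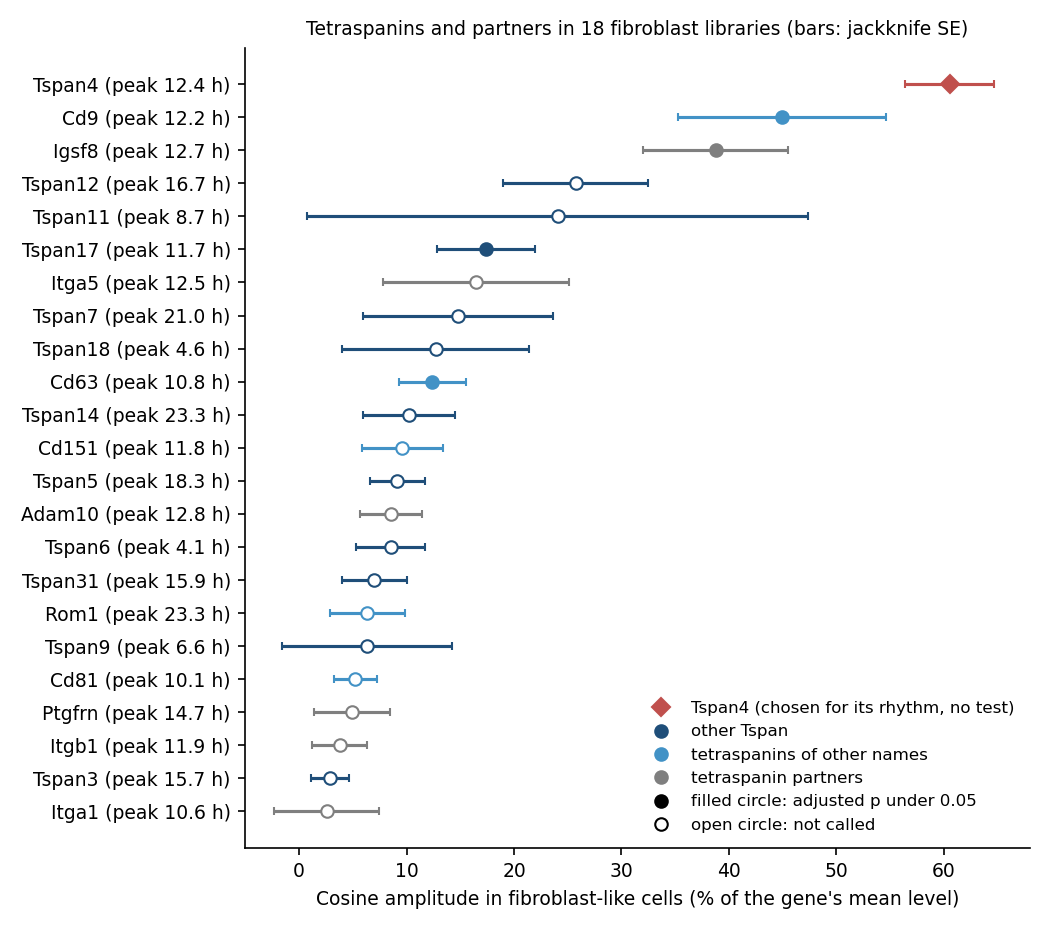
Cosine amplitude in fibroblasts as percent of each gene's own mean level (x axis) for the tetraspanins and partners that passed the filter on low counts, with jackknife SE bars over 18 libraries and the peak time beside each name; filled circles had an edgeR adjusted p under 0.05, open circles did not, and Tspan4, chosen for its rhythm, is a diamond with no test. Tspan4 stands at 60.5%, Cd9 at 44.9%, Igsf8 at 38.8% and Tspan17 at 17.4%.

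Of 11 tetraspanins with other names, 5 passed the filter in fibroblasts and 2 were called, Cd9 and Cd63, beside the 14.1% called of all genes tested. Cd9, which organises adhesion molecules at the cell surface, stood at 0.501, 0.607 and 0.7002 per 10000 at ZT2, at 0.642, 1.17 and 0.966 at ZT6, and at 1.19, 0.888 and 1.32 at ZT10. It stood at 2.03, 1.64 and 0.876 at ZT14, at 0.827, 0.740 and 0.783 at ZT18, and at 0.607, 0.635 and 0.574 at ZT22. The ZT14 libraries were the most uneven, and the third lay below all those of ZT10 and within the range of ZT6. The log2 amplitude was 0.65 with a peak at 11.9 h (edgeR adjusted p = 0.00065). Cd63, a tetraspanin of late endosomes and exosomes, ranged from 5.49 to 8.74 per 10000 with a median of 6.42, and its log2 amplitude was 0.18 with a peak at 10.3 h (edgeR adjusted p = 0.024). Cd81, Cd151 and Rom1 were tested and not called.

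Among 9 partners of tetraspanins, 6 passed the filter in fibroblasts and 1 was called, beside 14.1% of all genes, namely Igsf8, an immunoglobulin-like protein bound by Cd9 and Cd81. It stood at 0.311, 0.327 and 0.353 per 10000 at ZT2, at 0.421, 0.416 and 0.437 at ZT6, and at 0.482, 0.606 and 0.628 at ZT10. It stood at 0.908, 0.653 and 0.678 at ZT14, at 0.496, 0.331 and 0.431 at ZT18, and at 0.308, 0.333 and 0.437 at ZT22. All ZT14 libraries lay above those of every other time. The log2 amplitude was 0.54 with a peak at 12.4 h (edgeR adjusted p = 6.2e-05). Of 10 genes with known parts in migrasome formation or used as migrasome markers, all passed the filter and 1 was called, Sgms2, a sphingomyelin synthase, a share near the 14.1% of all genes. Sgms2 ranged from 0.129 to 0.231 per 10000, with a log2 amplitude of 0.24 and a peak at 4.6 h (edgeR adjusted p = 0.021), a different time of day from Tspan4. Itga5 and Itgb1, the fibronectin-binding integrin pair found in migrasomes, were not called (edgeR adjusted p = 0.149 and 0.383).

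In the summed immune cells 8 other Tspan genes passed the filter and none was called by edgeR, where 0.079% of 10132 genes were called. At an unadjusted p under 0.05 there was 1, Tspan3 (edgeR adjusted p = 0.563), while DESeq2 called none. JTK_Cycle, run without the filter on low counts on 18 of them, called 1, Tspan31, beside 466 of all 19646 genes it tested. Its calls were at p under 0.05, adjusted over the 18 templates tried per gene but not over genes. None of 7 tetraspanins with other names, 8 partners or 10 migrasome genes was called, and 2, 0 and 1 of them had an unadjusted p under 0.05. The lowest p of each list was that of Cd63 (edgeR adjusted p = 0.603), Itga6 (edgeR adjusted p = 0.762) and Sgms2 (edgeR adjusted p = 0.614). Igsf8, rhythmic in fibroblasts, had a log2 amplitude of 0.17 here (edgeR adjusted p = 0.807), and the difference between the cell types was not tested. In macrophages alone, where 0.834% of 8398 genes were called, none of 6 other Tspan genes was called, with the lowest p for Tspan14 (edgeR adjusted p = 0.328), the only one under 0.05 before adjustment. In muscle cells, where 0.127% of 3148 genes were called, none of 4 other Tspan genes was called, and Tspan8 had the lowest p and the only one under 0.05 before adjustment (edgeR adjusted p = 0.660). Of the tetraspanins with other names, the partners and the migrasome genes, 6, 5 and 7 were tested in macrophages and 4, 1 and 1 in muscle cells, and none was called. Before adjustment Cd63 and Cd151 had p under 0.05 in macrophages and Itgb1, the integrin gene on 2 of these lists, in muscle cells (edgeR adjusted p = 0.198, 0.366 and 0.783). Immune pseudobulks held 481549 to 5787721 UMIs against 2479192 to 32562861 in fibroblasts, and the part of depth in the number of calls was not tested.

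The clock genes of the list were called in 17 of 18 tested cases in fibroblasts, beside 14.1% of all genes tested. The 17 were Arntl, Clock, Npas2, Per1, Per2, Per3, Cry1, Cry2, Nr1d1, Nr1d2, Dbp, Tef, Hlf, Nfil3, Ciart, Bhlhe40 and Bhlhe41. In the summed immune cells 6 of 16 were called (Arntl, Per3, Nr1d1, Nr1d2, Dbp and Tef), beside 0.079%. In macrophages alone 8 of 15 were called, these 6 with Per2 and Cry1, beside 0.834% of all genes tested. In fibroblasts the fitted peaks ran from Nr1d1 at 8.1 h and Dbp at 9.8 h through Per3, Tef and Hlf, each at 11.1 h, and Bhlhe40 at 12.2 h to Per2 at 14.4 h and Cry1 at 19.1 h, with Arntl at 22.4 h. The Tspan4 peak in the same fit, 12.3 h, came after those of the D-box factors and before that of Per2. In macrophages Tspan4 peaked at 12.8 h, with Tef at 12.2 h, Cry2 at 13.2 h (edgeR adjusted p = 0.069) and Per2 at 14.98 h. Cry2 had peaked before Tspan4 in fibroblasts, at 9.3 h (edgeR adjusted p = 0.030), and the order of these peaks was not tested.

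Within 100 kb of Tspan4 on chromosome 7 lie 12 protein-coding genes, of which 9 passed the filter in fibroblasts and 2 were called, beside 14.1% of all genes. Taldo1, an enzyme of the pentose phosphate pathway, had a log2 amplitude of 0.18 with a peak at 20.8 h (edgeR adjusted p = 0.013). Pnpla2, the adipose triglyceride lipase, had 0.21 and 2.8 h (edgeR adjusted p = 0.031). Chid1, which overlaps the end of Tspan4 on the other strand, had 0.16 and 22.4 h (edgeR adjusted p = 0.231), away from the Tspan4 peak. Cd151, the neighbouring tetraspanin, had 0.15 and 11.4 h (edgeR adjusted p = 0.129). None of the 10 neighbours tested in immune cells or in macrophages and none of 6 in muscle cells was called by edgeR. Before adjustment Pnpla2 and Cd151 had p under 0.05 in macrophages, and no neighbour did in immune or muscle cells.

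The genes whose pattern over the 18 fibroblast libraries was most like that of Tspan4, by Pearson's r of TMM-scaled log2 CPM, were Maco1 (r = 0.94), Cys1 (0.93), Per3 (0.92), Ptgis (0.92), Pdxk (0.91), Tef (0.91), Fam117a (0.91), Wee1 (0.90), Slc6a6 (0.90) and Hlf (0.90). Per3, Tef and Hlf belong to the clock list, Wee1 encodes a cell cycle kinase, Ptgis makes prostacyclin, Pdxk makes the active form of vitamin B6 and Slc6a6 carries taurine. Spearman's rho for Maco1 was 0.92, and r was 0.91 without ZT2 replicate 3 and ZT14 replicate 2, the libraries farthest from the median of Tspan4. All genes share the libraries, the hours and the depth, so the values only rank likeness. Of these 10 genes 7 had RefSeq promoter windows. CACGTG occurred in those of Tef and Pdxk, TTATGNAA in that of Per3, and AGGTCA in that of Pdxk. Over all RefSeq windows these letters occur in 7.15%, 3.39% and 16.3%, and no enrichment was tested. Over the 18 immune pseudobulks the closest were Inpp5d (r = 0.82), Mylip (0.81), Cry2 (0.78), Tef (0.77) and Dbp (0.77). The 100 genes most alike were taken from the genes that passed the filter, 12236 in fibroblasts and 10132 in immune cells. In both lists occurred 15 genes (15% of each list), namely Maco1, Per3, Pdxk, Tef, Wee1, Tbc1d2b, Igsf8, Aph1a, Tns1, Dbp, Degs1, Nanp, mt-Cytb, mt-Atp6 and Mylip. The genes mt-Cytb and mt-Atp6 are part of the mitochondrial share given above. Igsf8 was the only tetraspanin partner among them, at rank 27 in fibroblasts and 51 in immune cells.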

How the data were processed

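The sources were 18 droplet-based single-cell RNA libraries of mouse dorsal dermis, 3 at each of 6 zeitgeber times. The authors prepared 10x 3′ libraries, aligned them to mm10 and deposited raw UMI counts per gene and barcode made with Cell Ranger 3.1.0 (tool and build from the submitters' processing notes), with no normalization applied. The deposit held 318 to 2322 barcodes per library, before the filters on genes and mitochondrial UMIs. Cells with 850 to 7800 genes and under 13% mitochondrial UMIs were kept. Counts were clustered without tetraspanin and clock genes (2000 variable genes, 30 components, 15 neighbours, Leiden resolution 0.8; scanpy 1.11.5, leidenalg 0.10.2, Python 3.11.15). Clusters were named where at least 3 markers were detected, and the rule that scores markers was revised after clusters had been seen, so names are rebuilt and can differ from the study's. Scrublet's own threshold marked 69 cells (0.41%) and was judged not to work. Instead, as an alternative, 219 cells (1.3%) of highest score were removed. The members, gene lists and tests were chosen with earlier results of these data known.

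The UMIs of all cells of a type were added up within each library. Levels are counts per 10000. Rhythms are the cosine and sine terms of a 24 h cycle, tested in edgeR 4.0.16 (quasi-likelihood, TMM, filterByExpr, Benjamini-Hochberg over all genes tested; R 4.3.3), with DESeq2 1.42.0 and JTK_Cycle as alternatives. The edgeR scripts were tested on simulated data. Of 100 genes given a log2 amplitude of 0.5, they recovered 65 in fibroblasts, 46 in immune cells and 13 in muscle cells. At a log2 amplitude of 1 they recovered 99, 89 and 72. Smaller rhythms can thus go uncalled, most of all in muscle cells. Differences between cell types used sign-flip permutations within libraries with numpy 2.4.6, and shares used cells thinned to 5000 UMIs. Named genes are Tspan4, every called member of a list, the lowest p of a list with none, and the genes ranked most alike. Tspan5, Tspan12, Tspan3, Cd151, Itga5, Itgb1 and Chid1 were named besides, after their values had been seen. Alternatives changed the filter, scaling, pseudocount, thinning depth, resolution and tool, and left out each library. Libraries are 1 per collection and are the unit of each test. Where all libraries lay on the same side, a sign-flip p reflects the number of libraries or draws and not the spread between libraries.

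Since replicate numbers mark days, same-numbered libraries were checked for shared deviations. Over 45 pairs the median correlation was 0.0073 in fibroblasts (lowest -0.1157, 8 over 0.1) and 0.036 in immune cells (lowest -0.371, 16 over 0.1). Over 17 pairs in muscle cells it was -0.0093 (lowest -0.4671, 4 over 0.1). Pairs of different number had medians of -0.0313, -0.0265 and 0.0093.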

Additional observations from a re-analysis of the deposited data

Results flagged for a closer look

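Tspan4 UMIs also occurred in barcodes that no comparison used, above the 3 UMIs that a count of 0 allows. The 27 endothelial-like cells held 24 Tspan4 UMIs. The 1674 cells of clusters with no name held 2460, and the 7113 barcodes that failed the filters on cells held 211. Summed over libraries these were 1.08, 0.809 and 0.0624 per 10000 UMIs. The cells with no name included 751 led by Cthrc1 and Tnmd and 751 led by Hba-a1 and Hbb-bs. All 6 fibroblast markers were detected in both of these clusters.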

How the results depend on the processing

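The count of other Tspan genes called in fibroblasts, 1 (Tspan17), was 2 with DESeq2, with JTK_Cycle and with the cells of highest doublet score removed (Tspan12 in each). JTK_Cycle was run without the filter on low counts, so that it tested 17 other Tspan genes in fibroblasts against 11 and 18 in immune cells against 8. Its calls were at p under 0.05 with no adjustment over genes, a looser threshold than that of edgeR and DESeq2. Over all genes JTK_Cycle called 1913 of 21807 in fibroblasts and 466 of 19646 in immune cells. Leaving out 1 library gave 0 to 2, with 0 without ZT22 replicate 1. In immune cells it was 0, and 1 (Tspan31) with JTK_Cycle. JTK_Cycle was not run in muscle cells, where only 12 libraries had enough cells. The relative amplitude in other immune cells was 93.3%, and 37.6% when fitted on the log2 scale. The difference of fibroblasts from macrophages was 0.56 log2 units and 0.85 at clustering resolution 2, where the cells in each class differ. The share difference of other immune cells from muscle cells lay between 2.38 and 4.36 percentage points with 1 library left out and missed the threshold without any of 5 libraries. With the replicate number as a block, 1 other Tspan gene was called in fibroblasts and 0 in immune and muscle cells, as without it. The block moved the calls over all genes from 1726 to 1752 in fibroblasts and from 4 to 3 in muscle cells. In immune cells they stayed at 8. Over all genes, the counts called differed by more than 1.5 times in immune cells (8 with edgeR, 40 with DESeq2, 13 with no filter on low counts) and muscle cells (4 with edgeR, 12 with DESeq2, 305 with no filter, 16 with high doublet scores removed, 7 with all libraries that held a muscle cell). The cause of these changes was not tested. Apart from leaving out a library, 90 of 95 recomputed values kept their direction and call within the spread or within 1.5 times for counts. The muscle result rests on 26 UMIs in all.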
